A study of Mus musculus with 7 samples.

Results

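Messages of 7 signalling genes reported as targets of the microRNA family miR-181 were followed in mouse bone marrow: Kpna4, Nlk, Dusp5, Dusp6, Ptpn11, Ptpn22 and Cd69. They were chosen by symbol, with earlier results of these data known. Each matched 1 Ensembl ID among the 49315 genes of the count table. All 7 passed the filter on low counts, which left 17920 genes for testing. The KO group held 4 libraries from mice labelled miR-181a2b2-/-, meaning loss of the cluster of Mir181a-2 and Mir181b-2. That loss was not checked in these libraries. The control group, flox, held 3 libraries from miR-181a2b2flox/flox mice, whose titles call them WT. All 7 came from mice fed a chow diet and subjected to hindlimb ischemia, an operation that cuts the blood supply of a hind leg. The labels give no age, sex, Cre driver or time after surgery, and do not say whether each library was 1 animal, so p-values cover only the scatter of these libraries, part of which may be technical.

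MicroRNAs lower the level or translation of messages that pair with their seed, the bases near their 5′ end, most often in the 3′ UTR. In T cells, miR-181a is known for raising sensitivity to antigen by holding down phosphatases that damp the receptor's signal. Among those reported as its targets are Dusp5 and Dusp6, which switch off the kinase ERK, and Ptpn11 and Ptpn22, which act nearer the receptor. In endothelium, miR-181b is known for lowering importin-α3, the product of Kpna4, which carries NF-κB into the nucleus.

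The mature strands of miR-181a to miR-181d named 5p share 1 seed in RefSeq (build GRCm38.p6). On this arm, the loci left in KO mice (Mir181a-1, Mir181b-1, Mir181c and Mir181d) thus encode the same seed as the deleted pair. Strands of the other arm were not examined. The 5p strand of Mir181a-1 is identical to that of Mir181a-2, and that of Mir181b-1 to that of Mir181b-2. Poly(A)-selected libraries do not measure these short strands. The sequences are shown because the seed, bases 2 to 8 in capitals, defines the sites searched for below.
miR-181a-5p: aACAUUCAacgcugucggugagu
miR-181b-5p: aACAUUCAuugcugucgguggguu
miR-181c-5p: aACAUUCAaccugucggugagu
miR-181d-5p: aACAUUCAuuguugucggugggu

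Seed matches stood in the longest annotated 3′ UTR of 4 of the 7 genes: Cd69, Nlk, Dusp5 and Dusp6. The motifs were TGAATGTA (8mer), TGAATGT (7mer-m8) and GAATGTA (7mer-A1), read on the transcript strand alone. The 8mer contains both shorter motifs, and each match was counted once, as its longest type. Capitals mark the match in the sites below, which carry the comparison between genes with and without one.
Cd69, 8mer: ggtaggaagagcTGAATGTAggta
Nlk, 7mer-m8: agacttgaaactTGAATGTccct
Dusp5, 7mer-m8: cgtaaacccatgTGAATGTgaag
Dusp6, 7mer-A1: aatttattataaGAATGTAaaac

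The Cd69 match lies at chr6:129267863-129267870 (minus strand, GRCm38), and starts at base 391 of a 936-base 3′ UTR. It is in 1 of the 2 coding transcripts of Cd69 that have a 3′ UTR. The Nlk match lies at chr11:78567714-78567720 (minus strand), from base 1201 of 1753. The Dusp5 match, at chr19:53542324-53542330 (plus strand), starts at base 1002 of 1109. The Dusp6 match, at chr10:99267443-99267449 (plus strand), starts at base 1144 of 1190. These matches in Dusp5 and Dusp6 thus stand close to the end of the message, and that in Cd69 in the first part of its UTR.

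No such match was present in the 3′ UTRs of Kpna4 (6940 bases), Ptpn11 (3635 bases) or Ptpn22 (207 bases), which says only that these letters are not in these windows. The Kpna4 UTR was longer than or equal to 98.7% of those of tested genes, and the Ptpn22 UTR than 9.98%. Among the 14275 tested genes with a 3′ UTR, 22.8% held at least 1 of the 3 motifs and 5.81% held the 8mer. Before the 3′ UTR, the same transcripts of Kpna4, Nlk and Dusp5 held 1 match each.

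**Figure D1:**
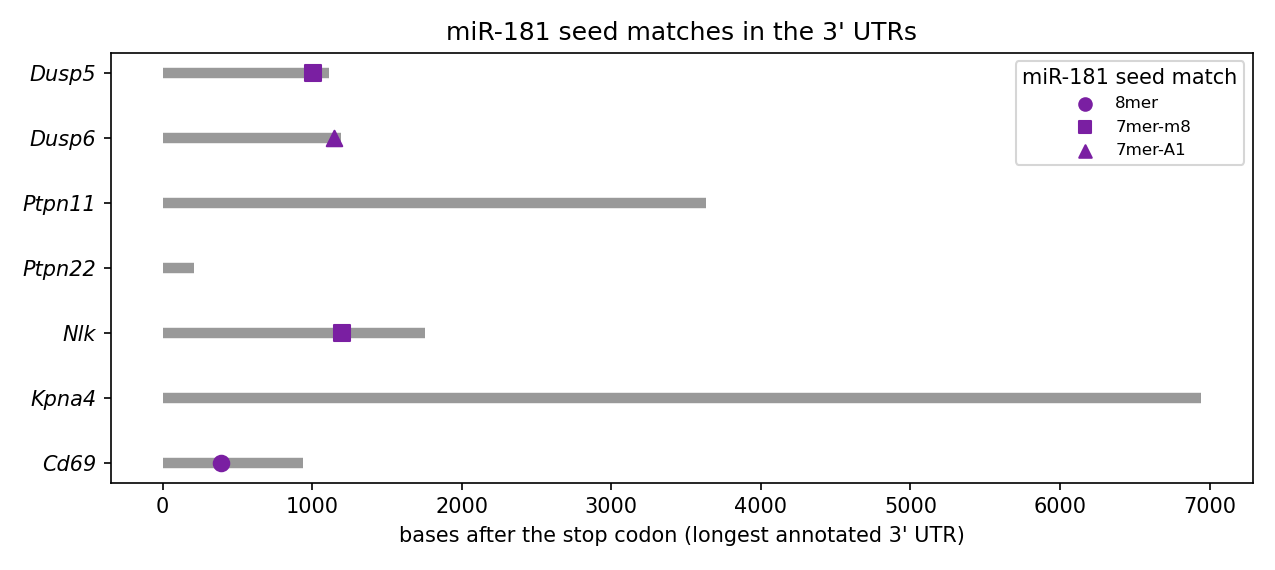
Position of miR-181 seed matches (symbols by type) along each gene's longest annotated 3′ UTR (grey bars, to scale), in bases after the stop codon. Dusp5, Dusp6, Nlk and Cd69 carry 1 match each; the UTRs of Ptpn11, Ptpn22 and Kpna4 carry none.

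Total counts ran from 43110251 to 48320848 in KO and from 46151300 to 51688514 in flox. Neutrophils are the main mature cells of marrow, and their markers had a summed level of 32326 to 40931 CPM (each library's counts scaled to the same total) in KO and 40593 to 58433 CPM in flox, none of the 11 at 0. The extraction protocol in the labels names white adipose tissue, but 5 adipocyte markers together stood at 27.0 to 56.1 CPM in KO and 29.6 to 75.6 CPM in flox. On the first principal component (34.7% of the variance) flox 1 lay apart at 58.7, against -23.2 to -16.6 in KO and 14.2 and 5.48 in flox 2 and flox 3. Its summed B lineage markers were also the lowest, at 89.8 CPM. Fold changes of the 7 genes that rest on flox 1 are given without it too.

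Of the 7 genes, KO was higher for 5 and lower for 2, where 8625 of all tested genes were higher and 9295 lower. The median log2 fold change of the 7 was 0.08, against -0.008 over all tested genes. None of them had an adjusted p under 0.05 in edgeR's quasi-likelihood test, where 0.145% of all tested genes passed. At an unadjusted p under 0.05 there were 2, Cd69 and Dusp5, where 14.1% of tested genes reached that level (1056 higher, 1464 lower). DESeq2 called 1 of the 7, Cd69, where it called 2.21% of the genes it adjusted. These values over all genes are also the background for the counts of each list below. In 1 gene, Cd69, every KO library lay above every flox library, as in 6.22% of tested genes, and in 1, Ptpn11, every KO library lay below, as in 7.41%. In bulk marrow, fewer cells that express a gene and less RNA per cell cannot be told apart.

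**Figure D2:**
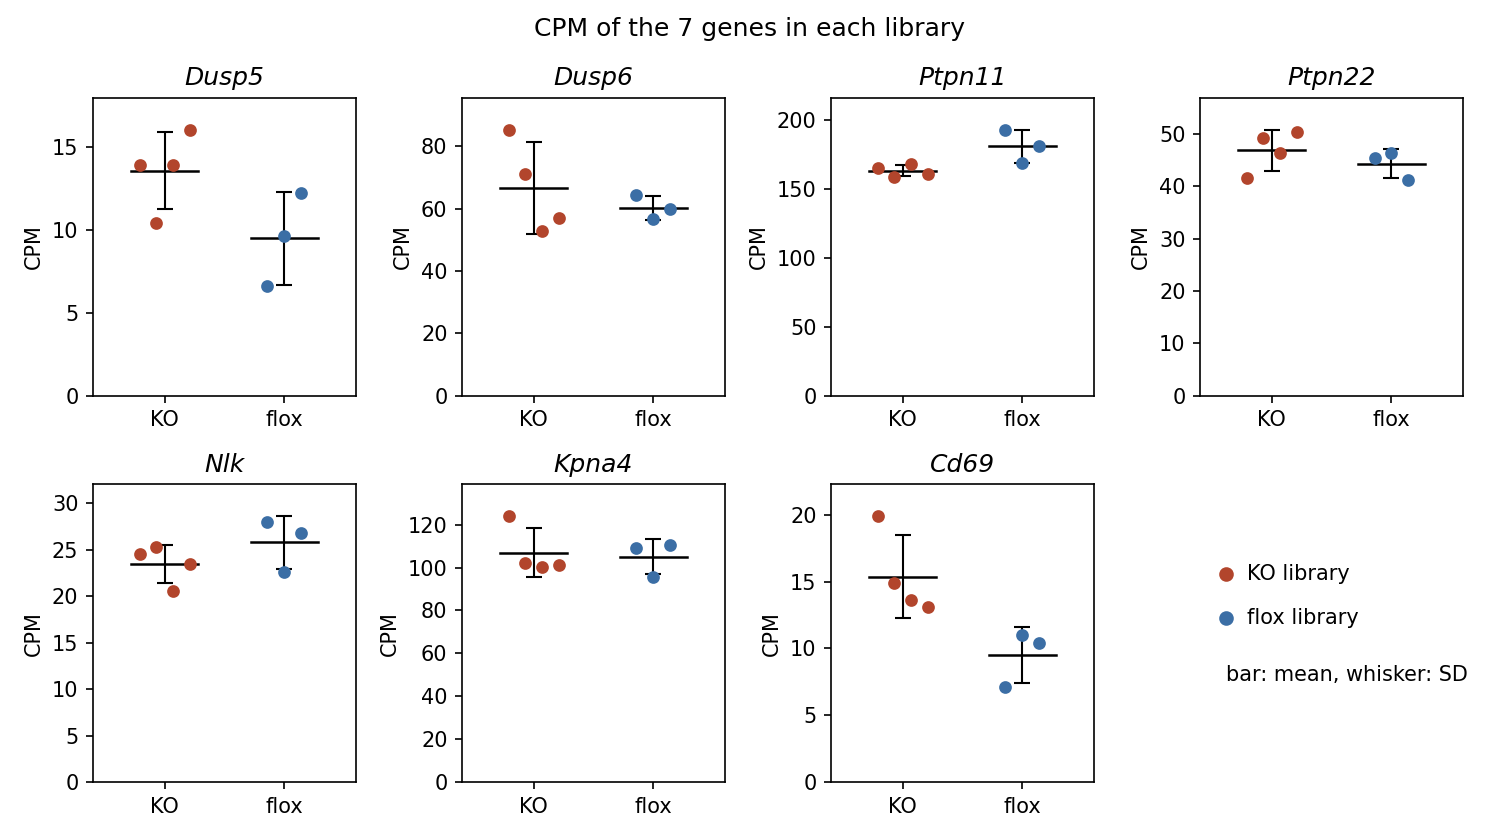
CPM (linear axes from 0) of each of the 7 genes in every KO (red) and flox (blue) library, with the group mean and SD. Cd69 lies higher in all 4 KO libraries (13.1 to 19.9) than in the 3 flox libraries (7.07 to 11.0); the groups overlap in the other panels except Ptpn11.

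Cd69 (ENSMUSG00000030156), on chromosome 6 (129267325 to 129275436, minus strand; GRCm38, as for all genes here), encodes an early activation antigen of lymphocytes that binds the receptor S1PR1 and holds cells in tissue. It had 19.9, 14.9, 13.6 and 13.1 CPM in KO libraries 1 to 4, against 7.07, 11.0 and 10.4 CPM in flox libraries 1 to 3. The 2 groups did not overlap, KO 1 was the highest library and flox 1 the lowest. Counts behind these levels ran from 575 to 942 in KO and from 355 to 537 in flox. The means were 15.4 ± 3.09 CPM in KO (SD, n = 4) and 9.49 ± 2.12 CPM in flox (SD, n = 3). KO minus flox came to a log2 fold change of 0.70 (edgeR adjusted p = 0.22), with a standard error of 0.19 and a 95% interval from 0.27 to 1.13. It was the largest difference of the 7 and did not pass over all genes.

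The adjusted p of Cd69 under DESeq2 was 0.0271, and over all alternatives it ran from 0.0271 to 0.365. Without flox 1 the log2 fold change was 0.52, and without KO 1 it was 0.55. Marker lists of 3 kinds of lymphocyte were summed in the same libraries, and no member of any of them passed edgeR's adjusted p. At an unadjusted edgeR p under 0.05, 5 NK cell, 1 B lineage and 1 T cell marker were higher. DESeq2 called 1 NK cell marker and 0 of the B lineage and T cell markers. The 12 B lineage markers summed to 894 to 1138 CPM in KO and to 89.8 to 841 CPM in flox, all 12 higher in KO and none at 0. The 8 NK cell markers summed to 24.8 to 35.4 CPM in KO and 19.6 to 25.5 CPM in flox, with all 8 higher and none at 0. The 12 T cell markers summed to 87.3 to 104 CPM in KO and 88.2 to 103 CPM in flox, with 8 higher, 4 lower and none at 0. The part of these cell types in the Cd69 difference was not tested.

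The other genes of lymphocyte activation and of S1P-guided exit numbered 14, of which 13 were tested, 10 higher and 3 lower, with a median log2 fold change of 0.38. Not 1 of these genes passed edgeR's adjusted p; 3 higher and 1 lower were under 0.05 unadjusted, and DESeq2 called 1, Klf2. Klf2, the transcription factor that drives S1pr1, stood at 129 ± 29.4 CPM in KO and 85.3 ± 14.9 CPM in flox (SD, n = 4 and 3; log2 fold change 0.60, edgeR adjusted p = 0.254). Tnfrsf9, a costimulatory receptor, had a log2 fold change of 0.80 (edgeR adjusted p = 0.241) and Sphk2, a sphingosine kinase, one of -0.21 (edgeR adjusted p = 0.257). S1pr1, the partner of CD69, chosen after its values were seen, had 25.5, 20.4, 19.1 and 20.3 CPM in KO and 11.2, 16.7 and 20.9 CPM in flox. Its groups overlapped and flox 1 was again the lowest library.

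Dusp5 (ENSMUSG00000034765), on chromosome 19 (53529109 to 53542431, plus strand), encodes a nuclear phosphatase specific for ERK. It had 13.9, 10.4, 13.9 and 16 CPM in KO libraries 1 to 4, against 6.59, 9.61 and 12.2 CPM in flox libraries 1 to 3. The groups overlapped: KO 2 lay below flox 3, and flox 1 was the lowest library. Dusp5 averaged 13.5 ± 2.32 CPM in KO (SD, n = 4) and 9.45 ± 2.79 CPM in flox (SD, n = 3). This gave a log2 fold change of 0.52 (edgeR adjusted p = 0.326), with a standard error of 0.21 and a 95% interval from 0.04 to 1.0. It was 0.31 without flox 1 and 0.74 without flox 3. In flox libraries 1 to 3, where Dusp5 read 6.59, 9.61 and 12.2 CPM, the summed B lineage markers read 89.8, 529.9 and 841 CPM. In KO libraries 1 to 4, where Dusp5 read 13.9, 10.4, 13.9 and 16 CPM, they read 1138, 894, 1083 and 959 CPM. KO 2 was lowest in both, but KO 4, highest in Dusp5, was second lowest in the markers. Their part in the difference was not tested. An antisense gene, AC137853.2, shares 547 exonic bases with Dusp5 and 20.5% of its 50-base stretches. AC137853.2 is not in the count table, so without a stated strand setting its reads may be counted within Dusp5.

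Dusp6 (ENSMUSG00000019960), on chromosome 10 (99263231 to 99267489, plus strand), encodes the cytoplasmic counterpart, a feedback inhibitor of ERK that ERK itself induces. It had 85.2, 71.1, 52.9 and 57.1 CPM in KO libraries 1 to 4, against 64.2, 56.6 and 60.0 CPM in flox libraries 1 to 3. KO libraries lay on both sides of the flox range. The coefficient of variation was 22% in KO and 6.32% in flox. Dusp6 averaged 66.6 ± 14.6 CPM in KO and 60.2 ± 3.8 CPM in flox (SD, n = 4 and 3). In edgeR the log2 fold change was 0.14 (edgeR adjusted p = 0.748), with a standard error of 0.15 and a 95% interval from -0.21 to 0.50. It was 0.00 without KO 1 and 0.25 without KO 3.

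Among the other 8 MAP kinase phosphatases, all tested, KO was higher for 6 and lower for 2, and the median log2 fold change was 0.19. Again no gene passed edgeR's adjusted p; 3 were under 0.05 unadjusted, all higher, and DESeq2 called 1, Dusp2. Dusp2, an inducible nuclear phosphatase of blood cells, had 39.0, 32.6, 37.0 and 32.6 CPM in KO libraries 1 to 4, against 8.94, 15.5 and 20.4 CPM in flox libraries 1 to 3. Its groups did not overlap, and flox 1 was again the lowest library. The Dusp2 log2 fold change was 1.24 (SE 0.25, edgeR adjusted p = 0.151; DESeq2 adjusted p = 1.63e-05). Dusp10, which acts on the stress kinases JNK and p38, stood at 6.40 ± 0.518 CPM in KO and 4.82 ± 0.225 CPM in flox (log2 fold change 0.41, edgeR adjusted p = 0.235). Dusp16, which acts on JNK, had a log2 fold change of 0.31 (edgeR adjusted p = 0.343).

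Genes that respond to ERK or feed back on it numbered 14, of which 13 were tested, 9 higher and 4 lower in KO, with a median of 0.03. No gene of the list passed edgeR's adjusted p; 2 higher and 1 lower were under 0.05 unadjusted, and DESeq2 called 1, Egr1. Egr1, a transcription factor gene switched on within minutes of ERK activation, had 41.0, 35.6, 19.5 and 22.9 CPM in KO libraries 1 to 4, against 11.9, 11.6 and 7.56 CPM in flox libraries 1 to 3. Fos, which encodes a subunit of the AP-1 factor, had 371, 368, 224 and 195 CPM in KO, against 185, 82.2 and 108 CPM in flox. In both genes KO 1 and KO 2 were the highest libraries, as they were for Dusp6. Their log2 fold changes were 1.52 for Egr1 (edgeR adjusted p = 0.153) and 1.21 for Fos (edgeR adjusted p = 0.267). Spry1, a feedback inhibitor of receptor signalling, had one of -0.54 (edgeR adjusted p = 0.293).

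**Figure D3:**
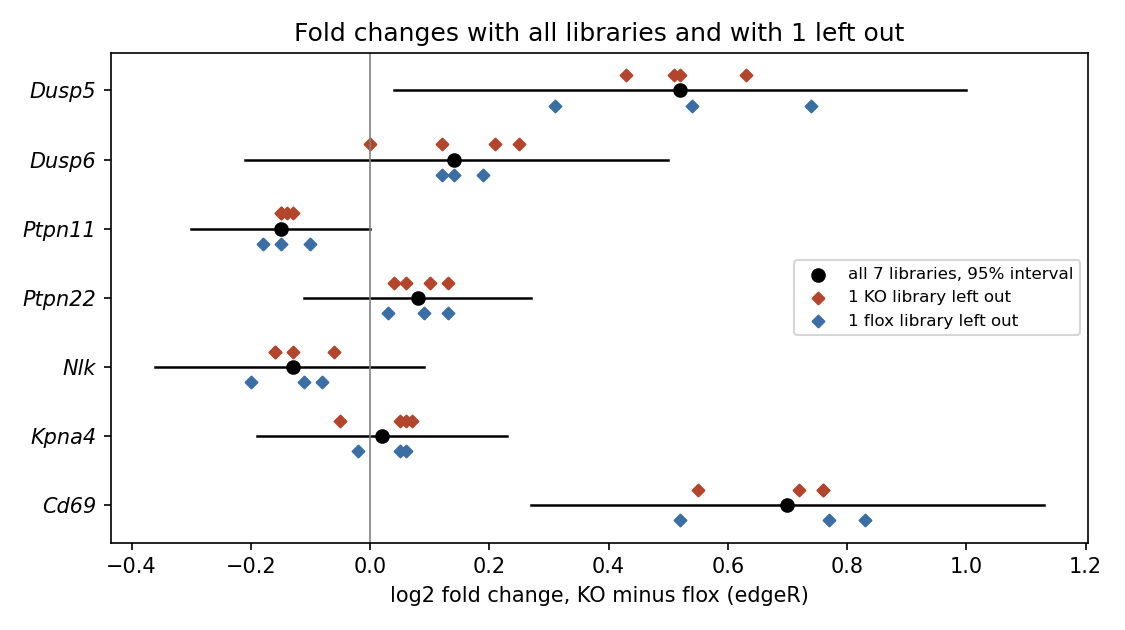
Log2 fold changes, KO minus flox, from edgeR with all 7 libraries (black, with 95% interval) and with 1 KO (red) or 1 flox (blue) library left out. Dusp5 ranges from 0.31 to 0.74 and Cd69 from 0.52 to 0.83; Kpna4 changes sign (-0.05 to 0.07).

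Ptpn11 (ENSMUSG00000043733), on chromosome 5 (121130533 to 121191397, minus strand), encodes the tyrosine phosphatase SHP2, which cytokine and growth factor receptors need to activate RAS fully. It had 165.1, 159.4, 167.7 and 161.1 CPM in KO libraries 1 to 4, against 192.9, 168.7 and 181.3 CPM in flox libraries 1 to 3. All KO libraries lay below all flox libraries, though KO 3 and flox 2 were nearly equal. The SD was 3.77 CPM in KO (n = 4) and 12.1 CPM in flox (n = 3). The difference on the log2 scale was -0.15 (edgeR adjusted p = 0.366), with a standard error of 0.07 and a 95% interval from -0.30 to 0.00, and -0.10 without flox 1.

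Ptpn11 sits at the head of the RAS and ERK cascade, whose 19 listed genes were all tested, 3 higher and 16 lower, with a median of -0.06. Not 1 of these genes passed edgeR's adjusted p, 1 (Mapk3, lower) was under 0.05 unadjusted, and DESeq2 called 0. Mapk3, which encodes the kinase ERK1, stood at 149 ± 9.43 CPM in KO and 179 ± 16.4 CPM in flox (SD, n = 4 and 3; log2 fold change -0.27, edgeR adjusted p = 0.233). Log2 fold changes were -0.13 for the adaptor gene Shc1 (edgeR adjusted p = 0.386) and -0.16 for Gab2 (edgeR adjusted p = 0.404), whose product recruits SHP2. Several marker lists were also lower in KO, with no member passing edgeR's adjusted p and none at 0. At an unadjusted edgeR p under 0.05, 8 neutrophil, 7 megakaryocyte and platelet, and 6 stroma and bone markers were lower. Over all 17920 tested genes 14.1% reached that level in either direction, and 1464 of those were lower. DESeq2 called 1, 2 and 3 markers of these lists, against 2.21% of the genes it adjusted. All 11 neutrophil markers were lower, at the summed levels given above, and their sum was highest in flox 2, where Ptpn11 was lowest of the flox libraries. All 8 megakaryocyte and platelet markers were lower (median log2 fold change -0.66), with sums of 381 to 556 CPM in KO and 961, 499 and 603 CPM in flox libraries 1 to 3. All 8 markers of marrow stroma and bone were lower (median -0.81), with sums of 333 to 497 CPM in KO and 949, 538 and 639.7 CPM in flox libraries 1 to 3. Both of these sums ran in the same order over the flox libraries as Ptpn11, but neither did so over the KO libraries. In KO libraries 1 to 4 the megakaryocyte and platelet sums were 418, 556, 381 and 397 CPM. The stroma and bone sums there were 346, 333, 455 and 497 CPM. KO 2, the KO library lowest in Ptpn11, was highest in the first sum and lowest in the second. Adipocyte (4 of 4 tested), endothelial (5 of 6) and monocyte and macrophage markers (9 of 10) were also mostly lower. So were eosinophil, basophil and mast cell markers (8 of 10). Erythroid (9 of 9), dendritic cell (7 of 8) and skeletal muscle markers (5 of 5 tested) were mostly higher. None of these markers passed edgeR's adjusted p. The part of these cell types in the differences of Ptpn11 and the cascade was not tested.

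Ptpn22 (ENSMUSG00000027843), on chromosome 3 (103859795 to 103912247, plus strand), encodes a phosphatase of blood cells that works with the kinase CSK to damp antigen receptor signalling. It had 41.5, 49.1, 46.4 and 50.3 CPM in KO libraries 1 to 4, against 45.3, 46.4 and 41.2 CPM in flox libraries 1 to 3. The groups overlapped over most of their range. Ptpn22 averaged 46.8 ± 3.92 CPM in KO and 44.3 ± 2.73 CPM in flox (SD, n = 4 and 3). KO minus flox came to a log2 fold change of 0.08 (edgeR adjusted p = 0.747), with a standard error of 0.08 and a 95% interval from -0.11 to 0.27. It was 0.03 without flox 3, 0.04 without KO 4, and 0.13 without KO 1 or without flox 2.

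The 13 other non-receptor tyrosine phosphatases, all tested, had 1 member higher and 12 lower in KO, with a median of -0.16. Again no gene passed edgeR's adjusted p; 2 were under 0.05 unadjusted, both lower, and DESeq2 called 0. Ptpn12 (88.7 ± 6.82 CPM in KO and 105 ± 5.88 CPM in flox; SD, n = 4 and 3) had a log2 fold change of -0.24 (edgeR adjusted p = 0.241). Ptpn7, a blood cell phosphatase of MAP kinases, had one of -0.20 (edgeR adjusted p = 0.348), and Ptpn14 one of -0.38 (edgeR adjusted p = 0.395).

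Among 14 genes of proximal antigen receptor signalling, all tested, 7 were higher and 7 lower, with a median of -0.02. No gene of the list passed edgeR's adjusted p; 3 higher and 1 lower were under 0.05 unadjusted, and DESeq2 called 0. The T cell kinase gene Lck had a log2 fold change of 0.34 (20.2 ± 2.48 CPM in KO and 16 ± 0.834 CPM in flox; SD, n = 4 and 3; edgeR adjusted p = 0.242). The kinase gene Syk had one of 0.28 (edgeR adjusted p = 0.269) and the adaptor gene Lcp2 one of -0.34 (edgeR adjusted p = 0.283).

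Nlk (ENSMUSG00000017376), on chromosome 11 (78567168 to 78697373, minus strand), encodes a serine/threonine kinase related to MAP kinases that phosphorylates the Wnt-pathway factors TCF and LEF. It had 24.6, 25.3, 20.6 and 23.5 CPM in KO libraries 1 to 4, against 28, 22.6 and 26.8 CPM in flox libraries 1 to 3. Flox 2 lay within the KO range. Nlk averaged 23.5 ± 2.06 CPM in KO and 25.8 ± 2.81 CPM in flox (SD, n = 4 and 3). This gave a log2 fold change of -0.13 (edgeR adjusted p = 0.615), with a standard error of 0.10 and a 95% interval from -0.36 to 0.09. It was -0.08 without flox 1, its highest library, -0.06 without KO 3 and -0.20 without flox 2. It was the 1 gene with a seed match in its 3′ UTR that was lower in KO.

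Of 15 partners of NLK and the Wnt pathway, all tested, 11 were higher and 4 lower, with a median of 0.07. Not 1 of these genes passed edgeR's adjusted p, 1 higher was under 0.05 unadjusted, and DESeq2 called 1, Apc. Apc, a scaffold for the destruction of β-catenin, stood at 65.2 ± 1.86 CPM in KO and 56.5 ± 0.536 CPM in flox (SD, n = 4 and 3; log2 fold change 0.21, edgeR adjusted p = 0.225). Axin2, a feedback gene of Wnt signalling, had a log2 fold change of 0.34 (edgeR adjusted p = 0.393) and Foxo1, a transcription factor that NLK phosphorylates, one of 0.69 (edgeR adjusted p = 0.403). Foxo1 had 60.9, 44.2, 48.7 and 55.4 CPM in KO libraries 1 to 4, against 17.0, 34.0 and 46.6 CPM in flox libraries 1 to 3, and flox 1 was again the lowest.

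Kpna4 (ENSMUSG00000027782), on chromosome 3 (69067149 to 69127113, minus strand), had 124, 102, 100.4 and 101 CPM in KO libraries 1 to 4, against 109, 95.8 and 110.4 CPM in flox libraries 1 to 3. KO 1 stood above the rest and the groups overlapped. Kpna4 averaged 107 ± 11.2 CPM in KO and 105 ± 8.06 CPM in flox (SD, n = 4 and 3). In edgeR the log2 fold change was 0.02 (edgeR adjusted p = 0.949), with a standard error of 0.09 and a 95% interval from -0.19 to 0.23. This was the smallest fold change of the 7 in size, and it was -0.05 without KO 1. The interval holds no rise above 0.23 and no fall below -0.19 on the log2 scale.

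Of 6 other importin genes 5 were tested, 0 higher and 5 lower in KO, with a median of 0.00; none passed edgeR's adjusted p, 0 were under 0.05 unadjusted and DESeq2 called 0. Log2 fold changes were -0.13 for Kpna2 (edgeR adjusted p = 0.592), -0.01 for Kpna3 (edgeR adjusted p = 0.975), the closest relative of Kpna4, and 0.00 for Kpnb1 (edgeR adjusted p = 0.988), the shared importin-β. NF-κB, the cargo of importin-α3, was represented by 9 genes for subunits and inhibitors, all tested, 7 higher and 2 lower, with a median of 0.24. Again no gene passed edgeR's adjusted p, 1 (Nfkb2, higher) was under 0.05 unadjusted, and DESeq2 called 0. Nfkb2 stood at 48.7 ± 6.16 CPM in KO and 38.0 ± 7.26 CPM in flox (SD, n = 4 and 3; log2 fold change 0.36, edgeR adjusted p = 0.316), the inhibitor gene Tnfaip3 had one of 0.24 (edgeR adjusted p = 0.381) and Relb one of 0.42 (edgeR adjusted p = 0.407). Relb had 20.8, 17.6, 19.2 and 20.6 CPM in KO and 9.38, 15.7 and 18.9 CPM in flox, where flox 1 was the lowest library.

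**Figure D4:**
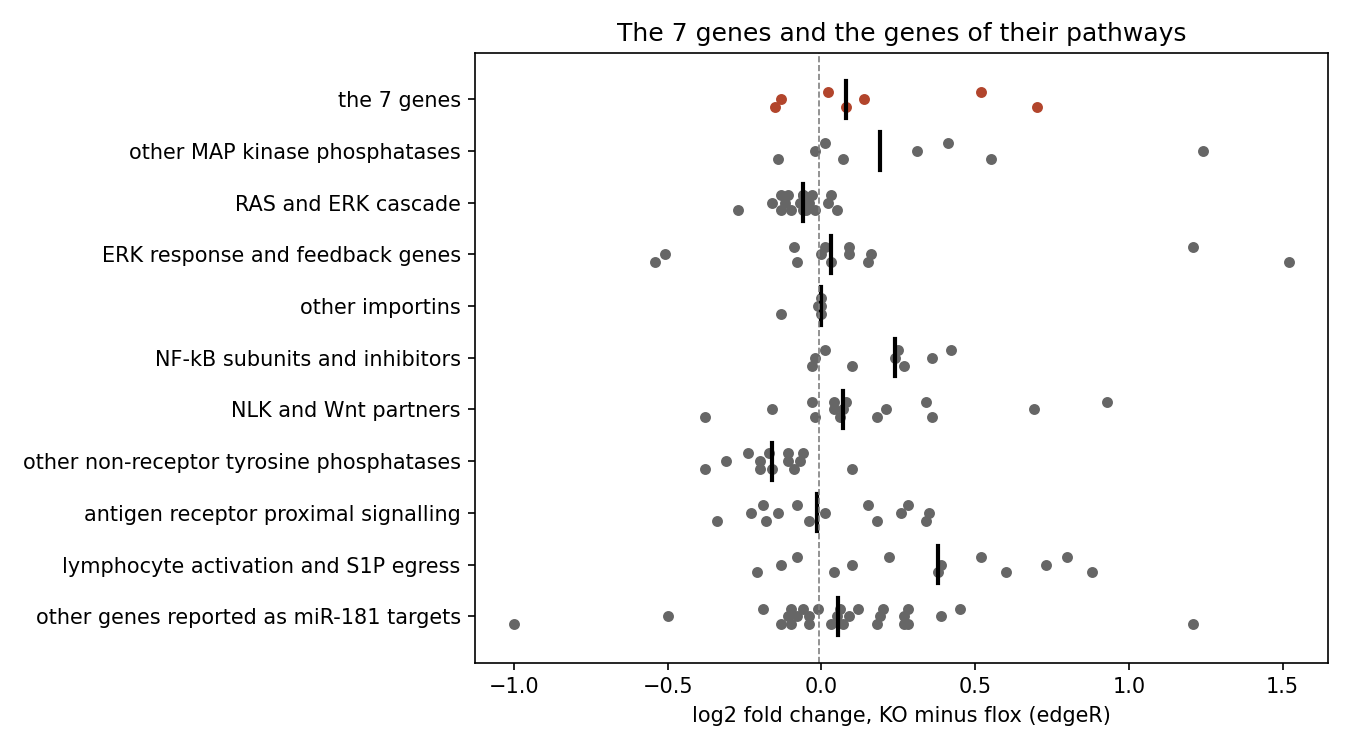
Log2 fold change (KO minus flox, edgeR) of each tested gene in the set of 7 (red) and in the lists of related genes (grey), with list medians (black bars) and the median of all tested genes (dashed, -0.008). List medians run from -0.16 for non-receptor tyrosine phosphatases to 0.38 for lymphocyte activation; no gene shown passed edgeR's adjusted p.

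Of the 4 genes with a seed match, KO was higher for 3 and lower for 1 (median log2 fold change 0.33). Of the 3 without, KO was higher for 2 and lower for 1 (median 0.02). None of the 7 passed edgeR's adjusted p. The 0.33 lies between Dusp6 (0.14, and 0.00 without KO 1) and Dusp5 (0.52, and 0.31 without flox 1). Over all tested genes with a 3′ UTR, the median was -0.02 both for the 3254 with a match (1488 higher, 1766 lower) and for the 11021 without. For the 830 with an 8mer, the type found in Cd69, it was -0.01. A further 31 genes reported as miR-181 targets, listed from general knowledge, had 28 tested, 16 higher and 12 lower, with a median of 0.06. None of these passed edgeR's adjusted p; 2 higher and 1 lower were under 0.05 unadjusted, and DESeq2 called 1, Timp3. Timp3, an inhibitor of matrix proteases, had 10.9, 11.4, 8.02 and 9.31 CPM in KO libraries 1 to 4, against 31.1, 11.3 and 17.1 CPM in flox libraries 1 to 3. Flox 1 was its highest library, and the log2 fold change was -1.0 (edgeR adjusted p = 0.261). Fos is also in this list, and Rassf1, a tumour suppressor gene, had a log2 fold change of 0.20 (edgeR adjusted p = 0.346).

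Levels are comparable between the 7 genes only per length. Per kilobase of merged exons over all 7 libraries, the order of mean level was Ptpn11 (22.8 CPM per kb), Dusp6 (20.4), Kpna4 (11.9), Ptpn22 (6.75), Dusp5 (4.77), Nlk (4.50) and Cd69 (1.97). The ranges of Ptpn11 (21.3 to 25.7 CPM per kb) and Dusp6 (16.9 to 27.2) overlapped. That of Dusp5 (2.67 to 6.46) overlapped both Ptpn22 (6.08 to 7.42) and Nlk (3.79 to 5.13). Kpna4 (10.7 to 13.8) lay clear of Dusp6 and Ptpn22, and Cd69 (1.09 to 3.05) lay below Nlk and overlapped the low end of Dusp5. Merged exons count retained introns, which make up much of the annotated length of Cd69. Per kilobase of the coding transcript with the longest 3′ UTR, Cd69 stood at 7.62 CPM per kb, above Nlk (5.51) and Dusp5 (4.77), and Ptpn22, at 16.7, above Kpna4 (12). On this scale the range of Cd69 (4.19 to 11.8 CPM per kb) overlapped those of Kpna4 (10.9 to 14), Nlk (4.64 to 6.29) and Dusp5 (2.67 to 6.46). Ptpn11 (30.5) and Dusp6 (27.1) were again the first and second.

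The genes whose log2 CPM ran most like each of the 7 over the 7 libraries are given as a description, since the libraries share the groups and flox 1. For Cd69 they were Gbp9 (Pearson r 0.996) and 9330175E14Rik (0.991), and for Dusp5 Scd1 (0.981) and Pard6g (0.969). For Dusp6 they were the cyclin gene Ccnd2 (0.984) and Pde4dip (0.976). Ptpn11 ran closest to Prelp (0.993) and Cc2d2b (0.980), and Ptpn22 to Snord104 (0.942) and AW549877 (0.938). Nlk ran closest to Pkd1l1 (0.982) and Eid1 (0.981), and Kpna4 to Zfp446 (0.996) and R3hcc1l (0.986).

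**Figure D5:**
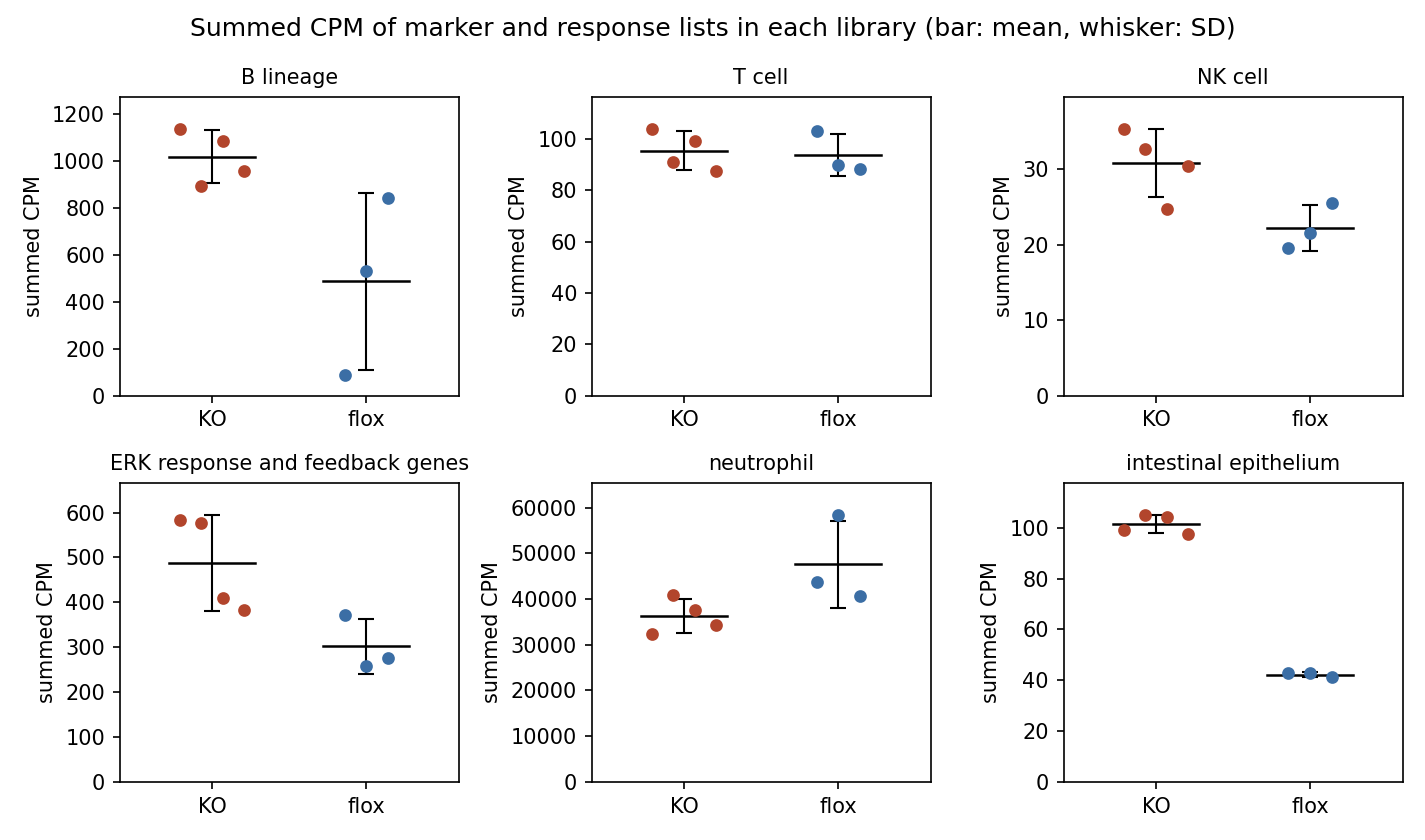
Summed CPM (linear axes from 0) of marker and response lists in every KO (red) and flox (blue) library, with group mean and SD. B lineage markers are lowest in flox 1 (89.8) and T cell markers span similar ranges in KO (87.3 to 104) and flox (88.2 to 103).

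Genes of intestinal epithelium separate the groups in these libraries, and 12 of them, picked from genes already known to differ, summed to 97.6 to 105 CPM in KO and 41.2 to 42.8 CPM in flox, with none at 0. Their part in the values of the 7 genes was not tested. Reads of the 7 genes were otherwise little shared: besides Dusp5, the share of 50-base stretches found in another gene's transcripts was at most 1.72%, in Nlk with the pseudogene Nlk-ps1.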

How the data were processed

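The authors deposited raw read counts per Ensembl gene for all 7 libraries. The tools named there, per the submitters' processing notes, are Trimmomatic 0.36 for trimming, STAR 2.5.2b for alignment (GRCm38) and, for counting, Subread 1.5.2's featureCounts. The notes used here name no annotation release, strand setting or treatment of reads with several matches.

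Symbols, positions, exon lengths and 3′ UTRs were taken from GENCODE M21 (GRCm38), which held 49056 of the 49315 gene IDs. MicroRNA sequences were RefSeq's (GRCm38.p6). With R 4.3.3 and edgeR 4.0.16, genes passing filterByExpr (minimum count 10) were scaled by TMM and fitted with robust glmQLFit. The glmQLFTest contrast was KO minus flox, two-sided, with Benjamini-Hochberg adjustment over all 17920 tested genes and a threshold of 0.05. CPM were computed on TMM-scaled libraries; for log2 CPM, a prior count of 2 was added. The fit was tested on simulated data.

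The 7 genes and every list were chosen with earlier results of these data known. Named genes were the 7, the 3 of lowest p in each pathway list, and the 2 genes closest to each of the 7 in pattern; others are said to be chosen after their values were seen. Within-group library pairs differed by 19.0 to 90.6 chi-square per degree of freedom, so all 7 counted as samples. Alternatives used DESeq2 1.42.0, limma 3.58.1, other scalings, filters and dispersion, a replicate block, and 1 library left out.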

Additional observations from a re-analysis of the deposited data

Results flagged for a closer look

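Kpna4 in KO 1 stood apart from its group, at 124 CPM against 100.4 to 102 CPM in the other 3 KO libraries. Its gap to the nearest library was 0.943 of the group's range, above Dixon's critical value for 4 values. Such a gap turns up by chance in about 1 in 20 groups, and the KO groups of 7 genes were examined. Without KO 1 the Kpna4 log2 fold change was -0.05 (edgeR adjusted p = 0.803, over all alternatives 0.803 to 0.971).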

How the results depend on the processing

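Over the 7 genes and 16 alternatives, 109 of 112 fold changes did not reverse and stayed on the same side of the threshold. The 109 include Dusp6 without KO 1, where its fold change fell to 0.00. The exceptions were Cd69, called by DESeq2 (0.71, making 1 of the 7 genes called), and Kpna4, whose sign changed without KO 1 (-0.05) and without flox 2 (-0.02), within a range of -0.05 to 0.07 over single libraries left out. The number of all genes passing moved from 26 to 365 with DESeq2, 13 with limma-voom, 112 with no filter on low counts, 16 with non-robust dispersion and 66 at an adjusted p of 0.1, and to between 2 and 14 with 1 library left out; the cause was not tested. Same-numbered KO and flox libraries deviated together with correlations of only -0.02, 0.08 and 0.02. The 0.08 of KO 2 with flox 2 was the highest of all pairs, while KO 1 correlated best with flox 2 (0.04). Values this near 0 cannot decide whether same-numbered libraries were paired. With the replicate block 4 genes passed, none of them among the 7. Depth was least for Dusp5, with 487 counts in KO 2 and 331 in flox 1.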
